A study of Arabidopsis thaliana with 126 samples.

Results

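A run of neighbouring genes on chromosome 3 of *Arabidopsis thaliana*, from At3g27280 to At3g28150, stood at about double its L*er* level in *ein2-45* seedlings. The run was chosen from the same RNA-seq values as a range of locus identifiers, because its genes were higher in *ein2-45* than in L*er* and the other genotypes, so that difference is given here as a description and without a test. Of the 114 rows of each table in this range, 65 had at least 1 TPM (a level scaled for transcript length to a fixed total per library) in at least 2 libraries of a table and are the members, out of 33602 rows in all. Each table had 63 members, of which 61 were shared, and the other 49 rows were below the minimum in both. In the TAIR10.1 annotation the members span chromosome 3 from 10076809 to 10473952, with 32 on the plus and 33 on the minus strand. They comprise 62 protein-coding genes, 1 long noncoding RNA gene, 1 other noncoding RNA gene and 1 transcribed pseudogene.

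All libraries came from 3-day-old etiolated seedlings kept in hydrocarbon-free air, and the ET libraries from seedlings given ET for 4 hr. The first table holds *ein2-45* and its wild type L*er* in air and with ET, along with the mutants *een-1* and *ein6-1* and their double mutant, *ein6-1 een-1*, under both conditions. The second holds air libraries of Col-0 and of the mutants *ino80-8*, *arp5-1* and *een-2*. Each group had 2 libraries. L*er* is the wild type for the first 4 mutants and Col-0 for the last 3. As *ein2-45* is a single *ein2* allele in the L*er* background, its libraries alone cannot separate a property of that line from an effect of lost EIN2 function. The double mutant *ein6-1 een-1* also had a low *EIN2* level, through other mutations, but which of these applies was not tested. Read counts were not used here, so depth is unknown.

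Ethylene is a gaseous plant hormone whose signal passes from receptors in the endoplasmic reticulum through the membrane protein EIN2 to the EIN3 family of transcription factors. Plants without functional EIN2 do not respond to the hormone. EIN6 (REF6) removes the H3K27me3 mark, and EEN, INO80 and ARP5 belong to the INO80 chromatin remodelling complex. The members of the segment have varied functions. They include subunits of the proteasome, the mitochondrial respiratory chain and the plastid ribosome, a replication-dependent histone, and a tandem array of UMAMIT transporters, a family named for amino acid transport.

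As a check of the labels, *EIN2* was at 44.2 and 39.8 TPM in *ein2-45* in air and at 44.1 and 51.2 TPM in L*er*. After ET it was at 42.5 and 46.9 TPM in *ein2-45* and at 65.8 and 86.8 TPM in L*er*. In *ein6-1 een-1* it was at 9.38 and 8.24 TPM in air and at 9.18 and 10.6 TPM after ET. The air level of the transcript thus does not mark the *ein2-45* allele. The hormone response does: 3054 of 20592 tested genes rose and 961 fell with ET in L*er*, and 0 were called in *ein2-45* (limma, adjusted p below 0.05), where 514 had an unadjusted p below 0.05. Ribosomal RNA genes took between 2.80% and 30.3% of the TPM of a first-table library. The highest share was that of *ein6-1* ET replicate 2, and the L*er* air libraries had 16.1% and 11.6%. The median of all tested genes was 0.18 higher in *ein2-45* than in L*er* in air on the log2 scale, and -0.01 after ET. Values after rescaling by median-of-ratios factors, which bring that median to 0.00 in air, are given for some of the results and not for every count.

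Most members were near double the L*er* level in *ein2-45*, in air and after ET. *PBB1* (At3g27430, chromosome 3 from 10152458 to 10155447), a beta subunit of the 20S proteasome, was at 229 and 194 TPM in the *ein2-45* air libraries and at 99.2 and 105 TPM in those of L*er*. After ET it was at 235 and 211 TPM in *ein2-45* and at 121 and 128 TPM in L*er*. All 4 *ein2-45* libraries lay above all 16 others of the first table for this gene, the highest of which had 136 TPM. *G6PD5* (At3g27300), a cytosolic enzyme that makes NADPH, had 126 and 102 TPM in *ein2-45* and 52.5 and 54.3 TPM in L*er* in air. After ET its values were 111 and 120 TPM against 56.8 and 72.4 TPM, again without overlap between the genotypes. *SDH2-1*, the iron-sulfur subunit of mitochondrial complex II, had 119 ± 7.74 TPM in *ein2-45* and 68.6 ± 5.35 TPM in L*er* in air (mean ± SD, n = 2 libraries here and below). *MDAR4*, a peroxisomal enzyme that regenerates ascorbate, had 151 ± 4.50 against 73.2 ± 8.32 TPM, and the histone H3.1 gene At3g27360 had 82.8 ± 6.62 against 40.8 ± 0.0495 TPM.

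Over the 63 members of the first table, the median difference between *ein2-45* and L*er* on the scale of log2(TPM + 1) was 1.04 in air, with quartiles of 0.80 and 1.26. After ET it was 0.93, with quartiles of 0.65 and 1.18. Rescaled, the medians were 0.86 and 0.92. As ratios of mean TPM, 44 members lay between 1.5 and 3 in air, 10 at 3 or more, 4 between 1 and 1.5, and 5 below 1. After ET the counts were 40, 13, 5 and 5. All 4 *ein2-45* libraries were above all 4 L*er* libraries for 54 of the 63 members, against 17.7% of all tested genes, and below them for 4, against 7.49%. For the other 5 the libraries overlapped. For 40 members the 4 *ein2-45* libraries were above all 16 other libraries of the first table, against 3.89% of all tested genes. Since these values chose the segment, the shares are not read as a result.

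The summed TPM of all 65 members shows the same level difference in single libraries. In *ein2-45* the sum was 3561 ± 297 TPM without ET and 3626 ± 69.4 TPM with it. L*er* had 1516 ± 62.9 and 1795 ± 44.0 TPM. Without the *RPL12* genes, which have the highest mean levels in *ein2-45*, the sums were 2662 ± 372 and 2679 ± 8.14 TPM in *ein2-45* against 1245 ± 25.1 and 1346 ± 86.3 TPM in L*er*. Among the other first-table groups the full sum ranged from 1420 ± 317 TPM in *ein6-1* after ET to 2031 ± 95.4 TPM in *een-1* after ET.

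**Figure D1:**
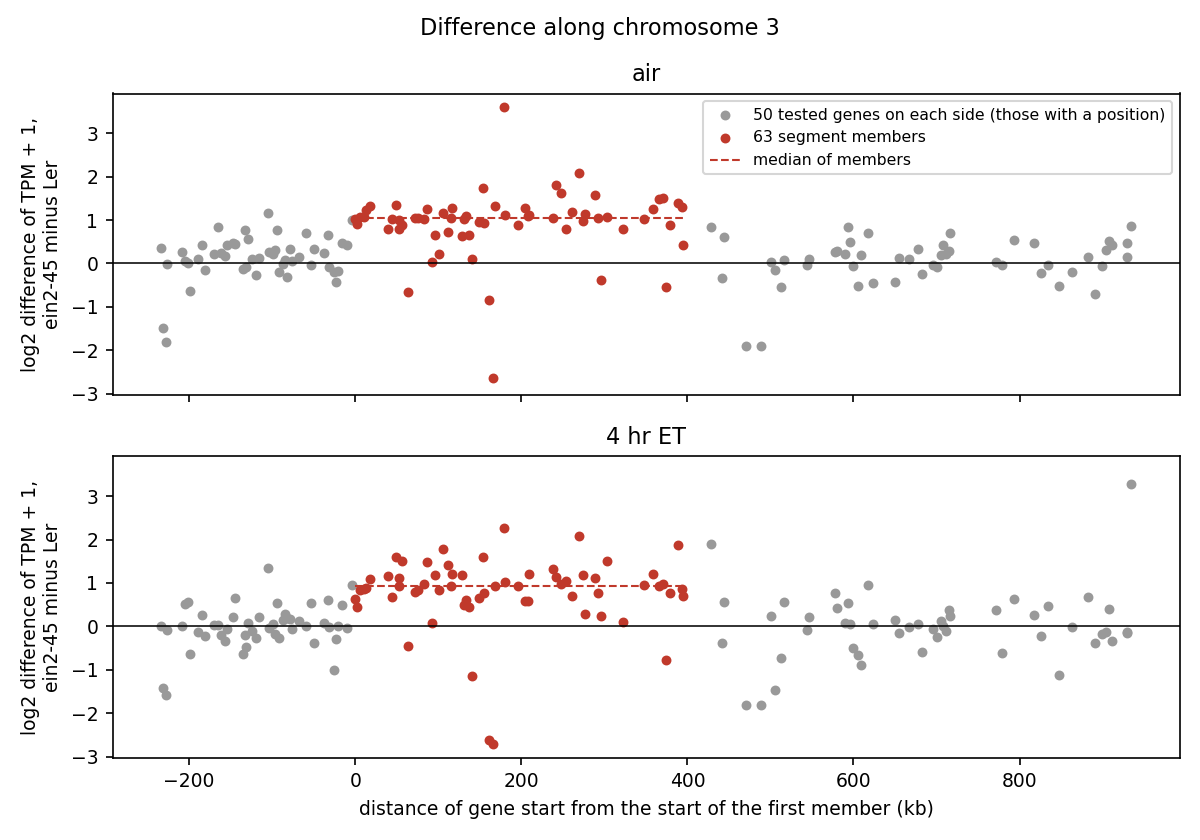
Difference between *ein2-45* and L*er* (log2 of TPM + 1, means of 2 libraries) against the distance in kb of each gene's start from the start of the first member, in air (top) and after 4 hr of ET (bottom). Red points are the 63 members, whose medians (dashed) are 1.04 and 0.93, and grey points are the tested genes next to them, whose medians on the left are 0.16 and 0.01 and on the right 0.12 and -0.01.

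The raised level ran along the whole segment. In 3 consecutive blocks of 21 members, the median difference in air was 1.02, 1.04 and 1.13, and after ET 0.87, 0.93 and 0.96. Members on the plus strand had medians of 1.06 in air and 0.92 after ET, and those on the minus strand 1.01 and 0.93. The 45 members with a mean of at least 5 TPM over the L*er* and *ein2-45* libraries had medians of 1.09 and 0.94, with 40 of them above 0.5 in both conditions. Of the 18 members under 5 TPM, 9 were above 0.5 in both. In its own level the segment was ordinary: the median member had 9.39 TPM in L*er* in air against 10.5 TPM over all tested genes, and a gene length of 2.74 kb against 2.34 kb. The longest unbroken run on chromosome 3 of tested genes above 0.5 in both conditions had 14 genes, from At3g27670 to At3g27890, and the next had 10, from At3g27300 to At3g27390. Both lie within the segment. Since these same differences chose the segment, that place is a description and not a result.

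The edges are those of the chosen range of locus identifiers, and the nearest tested gene outside each was raised too. The 50 tested genes to the left had a median difference of 0.16 in air and 0.01 after ET, and the 50 to the right 0.12 and -0.01. The rest of chromosome 3, with 3860 tested genes, had 0.19 and 0.00. At the left edge the first member, *PHB4*, a prohibitin of the mitochondrial inner membrane, was at 1.02 in air and 0.63 after ET, and At3g27290 and *G6PD5* next to it were at 0.92 and 1.08 in air and at 0.44 and 0.84 after ET. Just outside, At3g27270 was still at 1.01 and 0.95, with 18.5, 14.8, 17.4 and 17.8 TPM in the *ein2-45* libraries against 7.13, 8.34, 9.89 and 7.51 TPM in L*er*. The next gene out, *GTE8*, was at 0.44 and -0.04, and At3g27250 at 0.48 and 0.50. At the right edge *UMAMIT44* was at 1.40 and 1.88, At3g28140 at 1.302 and 0.86, and the last member, *TBL22*, at 0.42 and 0.71. Outside, *CSLC04*, a xyloglucan glucan synthase, was at 0.85 and 1.89, and its L*er* level was 294 TPM without ET and 170 TPM with it. The genes At3g28200 (-0.33 and -0.39) and *PMZ* (0.60 and 0.57) follow it.

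A few members stood further above L*er* than the rest. *LHCB2.3* (At3g27690, from 10255906 to 10257489), a light-harvesting chlorophyll-binding protein of photosystem II, had the highest difference. It was at 57.6 and 37.1 TPM in *ein2-45* in air against 2.92 and 2.88 TPM in L*er*, and at 28.4 and 26.2 TPM against 6.46 and 3.61 TPM after ET. That is 3.60 in air and 2.27 after ET on the log2 scale. The noncoding RNA gene At3g27884 was at 112 and 70.0 TPM against 22.7 and 17.8 TPM in air, a difference of 2.09 in air and also after ET. *RPL12-A* (At3g27830) and *RPL12-C* (At3g27850), neighbouring genes for the L12 protein of the plastid ribosome, were at 533 ± 27.8 and 366 ± 47.4 TPM in *ein2-45* in air against 152 ± 14.1 and 118 ± 23.7 TPM in L*er*. Their differences were 1.80 and 1.63 in air and 1.14 and 0.98 after ET. At3g27630, annotated as a cyclin-dependent kinase inhibitor, had 6.41 ± 0.700 TPM against 1.33 ± 0.983 TPM in air. *UMAMIT44* had 14.3 ± 0.382 against 4.82 ± 0.530 TPM.

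Other members above the median in both conditions were *DEG1*, a protease of the thylakoid lumen (1.56 in air and 1.11 after ET), At3g27500, one of a row of genes for cysteine/histidine-rich C1 domain proteins (1.16 and 1.79), and At3g27350, annotated as an ATRX-like regulator (1.34 and 1.60). At3g27470 (1.25 and 1.49), the kinesin light chain-related gene *KLCR2* (1.07 and 1.50) and the golgin gene *GC6* (1.27 and 1.21) complete the 12 largest among members that reached 5 TPM in either genotype.

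A handful of members were lower in *ein2-45*, were raised less than most, or overlapped between the genotypes. *OLEO4* (At3g27660, from 10243244 to 10245023), an oleosin that coats seed oil bodies, was lower: its *ein2-45* libraries had 3.25, 10.7, 5.69 and 5.94 TPM, and its L*er* libraries 42.2, 44.2, 40.1 and 47.6 TPM. *LBD25* (At3g27650), a LOB-domain transcription factor that lies beside it, had 3.20 and 1.19 TPM in *ein2-45* in air against 5.06 and 3.91 TPM in L*er*, and 1.76 and 2.06 TPM after ET against 18.6 and 15.3 TPM. At3g27400, annotated as a pectin lyase-like protein, had 1.75 ± 0.00 against 3.33 ± 0.474 TPM in air, and *UMAMIT47* 1.51 ± 0.417 against 2.65 ± 0.106 TPM. These 4 are the members whose *ein2-45* libraries were all below those of L*er*. The kinase gene *ATPK7* (At3g27580) was level in air, with 16.0 and 14.9 TPM against 13.5 and 15.1 TPM, and lower after ET, with 16.4 and 14.7 TPM against 32.03 and 39.16 TPM. The remaining members among the 6 smallest differences were still above L*er* in both conditions. They were At3g27570 (0.66 and 0.45), *TBL22* and At3g27906 (1.13 and 0.29). *PHB4* overlapped between the genotypes, as its L*er* libraries reached 24.7 TPM after ET, above 22.3 and 23.2 TPM in *ein2-45* in air. At3g27473, *LBD26* and At3g27997 overlapped as well, all with means under 2 TPM in both genotypes.

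**Figure D2:**
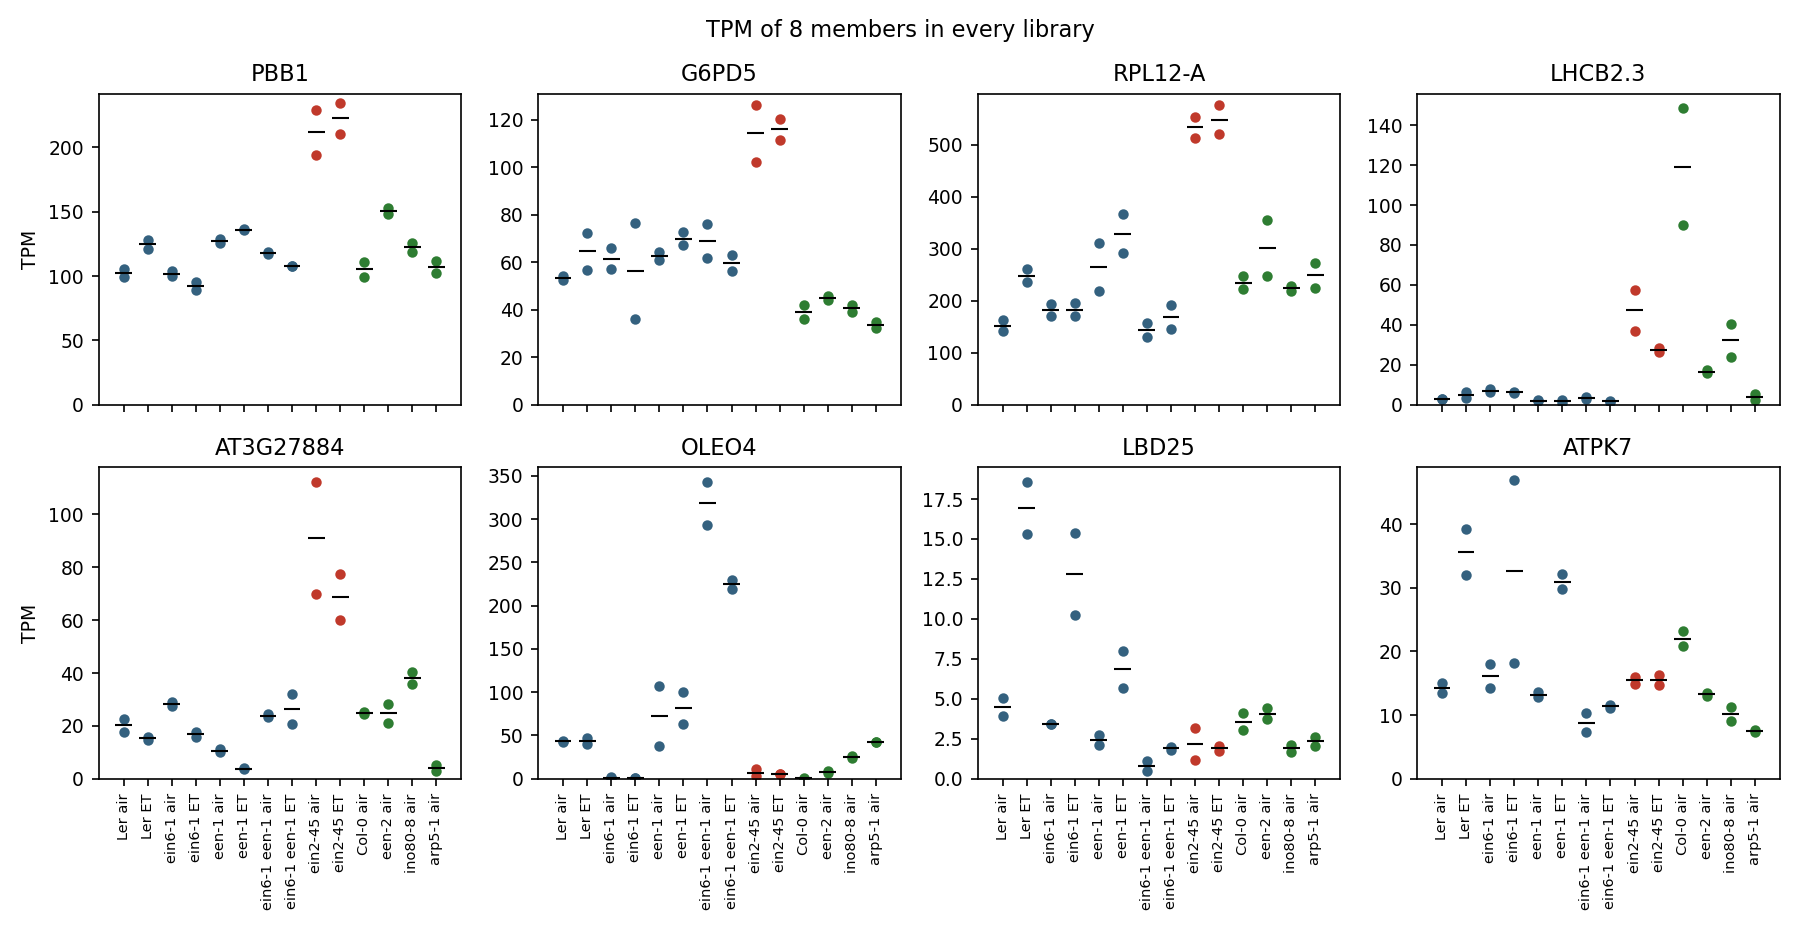
TPM of 8 members in every library (points) with the mean of the 2 libraries (black line), for the L*er*-background groups (blue, *ein2-45* red) and the Col-0-background groups (green). *PBB1*, *G6PD5*, *RPL12-A* and At3g27884 are highest in *ein2-45*, whereas *LHCB2.3* is highest in Col-0 at 119 TPM, *OLEO4* in *ein6-1 een-1* in air at 318 TPM, and *LBD25* and *ATPK7* in ET-treated L*er* at 16.9 and 35.6 TPM.

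Across the 63 members, the air and the ET differences share no library. Their Pearson r was 0.83 and Spearman rho 0.53. Without *OLEO4* and *LBD25*, the members farthest from the median, r was 0.72 and rho 0.48 over 61 members. The points share genotypes and neighbourhood, so these values describe the members and carry no test.

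In the 3 other mutants of the first table the segment as a whole stayed close to the median of all tested genes. In air the median member differed from L*er* by 0.12 in *ein6-1*, 0.35 in *een-1* and 0.29 in *ein6-1 een-1*, against 0.16, 0.32 and 0.33 over all tested genes. After ET it differed by -0.26, 0.22 and 0.13, against -0.31, 0.10 and 0.04. Set against each of these 3 genotypes, the members of *ein2-45* had medians of 0.99, 0.61 and 0.68 in air and of 1.15, 0.71 and 0.81 after ET. Rescaled, these were 0.98, 0.77 and 0.80 in air and 0.88, 0.85 and 0.83 after ET. The lowest of the 4 *ein2-45* libraries stood 0.86 above the L*er* mean of its treatment over the members, and the highest of the 12 libraries of the other mutants stood 0.38 above it. The segment was chosen because *ein2-45* stood above these genotypes as well as L*er*. The values of this paragraph are therefore a description and not a result.

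**Figure D3:**
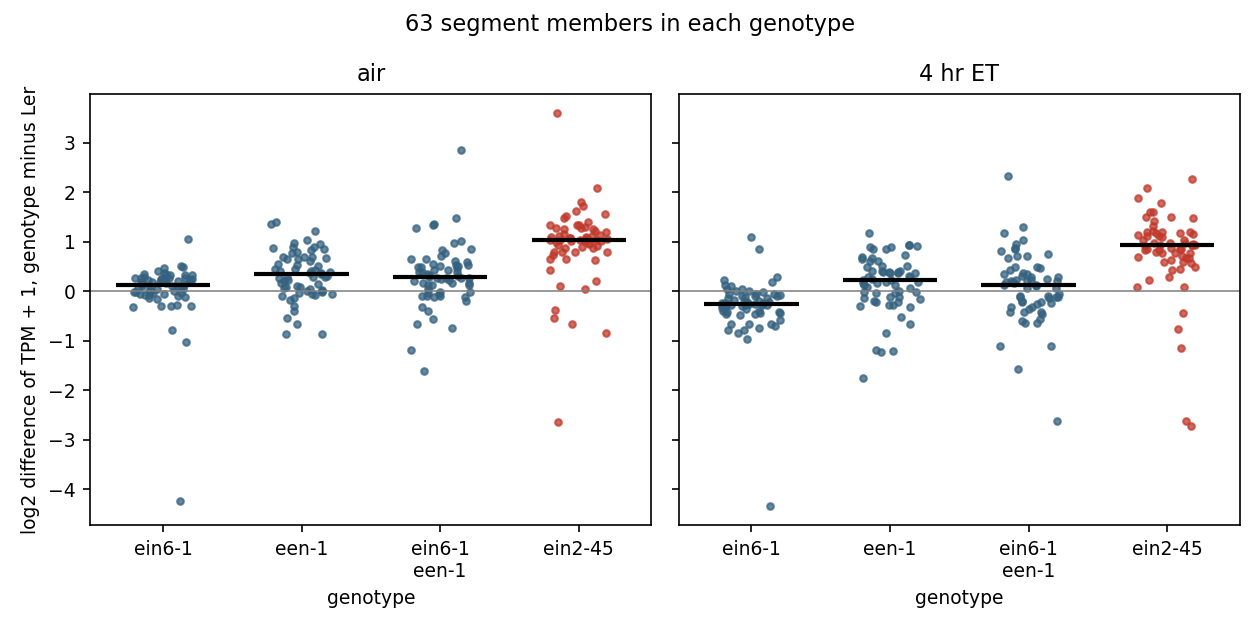
Difference of each of the 63 members from L*er* (log2 of TPM + 1, means of 2 libraries) in the 4 mutants, in air (left) and after 4 hr of ET (right), with the median as a black line. The medians in air are 0.12, 0.35, 0.29 and 1.04, and the lowest point of *ein6-1* in both panels is *OLEO4*.

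Single members did change in these mutants. The tests compare each mutant with the L*er* air libraries that also entered the difference by which the segment was chosen. In *ein6-1*, 1 member rose and 2 fell, against 2.32% and 1.87% of all tested genes. *OLEO4* fell from 43.2 ± 1.39 TPM in L*er* to 1.38 ± 0.445 TPM, a log2 fold change of -4.23 (SE 0.39, limma adjusted p = 8.9e-07). *UMAMIT47* fell by 1.02 (adjusted p = 0.019 from limma) and *LHCB2.3* rose by 1.05 (adjusted p = 0.038). After rescaling 0 members rose and 3 fell, and 1 was called without *ein6-1* air replicate 2 or without either L*er* air library.

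In *een-1*, 17 members rose and 3 fell, against 21.1% and 2.62% of all tested genes. Rescaled, 9 rose and 6 fell. The count was 1 without *een-1* air replicate 2, 4 without L*er* air replicate 1, 13 without L*er* air replicate 2, and 31 without either *ein6-1* ET library. *PHB4* had 26.4 ± 2.91 TPM against 10.8 ± 1.80 TPM in L*er* (log2 fold change 1.22, SE 0.21, limma adjusted p = 0.0012). *RPL12-A* rose by 0.78, *CARA*, the small subunit of carbamoyl phosphate synthetase, by 0.78, and the H3.1 gene At3g27360 by 0.68. The members that fell were At3g27884 (-0.87), *UMAMIT47* (-0.86) and *NQR*, a quinone oxidoreductase (-0.53).

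In *ein6-1 een-1*, 15 members rose and 4 fell, against 28.5% and 6.3% of all tested genes, and rescaled 10 rose and 10 fell. The count was 11 without any 1 of the 4 compared libraries and 29 without either *ein6-1* ET library. *OLEO4* was the member that moved most. It was at 294 and 343 TPM in the double mutant, above every L*er* library, with a log2 fold change of 2.85 (SE 0.39, limma adjusted p = 2.9e-05). *LBD25* fell to 0.815 ± 0.460 TPM from 4.48 ± 0.813 TPM (log2 fold change -1.61, SE 0.29, adjusted p = 0.00037), and *PHB4* rose by 1.27 (adjusted p = 0.00016). Set against *een-1* in air, the double mutant had 4 members higher and 6 lower, against 6.32% and 6.69% of all tested genes. *OLEO4* was 2.30 higher (SE 0.39) and At3g27884 1.10 higher, whereas At3g27400 was lower by a log2 fold change of -1.63 (SE 0.23), *UMAMIT46* of -1.16 and *RPL12-A* of -0.87. The count fell to 4 without *ein6-1 een-1* air replicate 1 and to 5 without *een-1* air replicate 2.

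ET moved some members in L*er* and none detectably in *ein2-45*. In L*er*, 6 members rose after 4 hr of ET and 1 fell, against 14.8% and 4.67% of all tested genes. *LBD25* rose from 4.48 ± 0.813 to 16.9 ± 2.30 TPM (log2 fold change 1.71, SE 0.29, limma adjusted p = 0.00046), and kept its call under all 13 alternatives. *ATPK7* rose from 14.3 ± 1.14 to 35.6 ± 5.04 TPM (log2 fold change 1.25, SE 0.28, adjusted p = 0.0055). *PHB4*, *CARA*, *RPL12-C* and *RPL12-A* rose by 0.79, 0.79, 0.77 and 0.70, and At3g27500 fell by 0.68 on the log2 scale. The split depended on scaling, since rescaled 4 members rose and 11 fell, and *RPL12-A* and *RPL12-C* were no longer called. The count was 4 without L*er* ET replicate 1, 3 without L*er* ET replicate 2, 1 without L*er* air replicate 1 and 17 without either *ein6-1* ET library.

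In *ein2-45*, 0 members were called between ET and air by limma, and 0% of all tested genes, with 2 members at an unadjusted p below 0.05. The median member moved by 0.03 in *ein2-45* and 0.20 in L*er*, against 0.06 and 0.25 over all tested genes. Rescaled, the members' medians were -0.03 and -0.05. In *ein2-45* *LBD25* stood at 2.20 ± 1.42 TPM without ET and 1.91 ± 0.212 TPM with it, and *ATPK7* at 15.5 ± 0.771 and 15.6 ± 1.16 TPM. The difference between the 2 responses was called for *LBD25* alone, at -1.77 (SE 0.40, limma adjusted p = 0.016), so that 0 members had a higher and 1 a lower response in *ein2-45*, against 1.85% and 1.86% of all tested genes. For *LHCB2.3* it was -1.33 (adjusted p = 0.068) and for *ATPK7* -1.25 (adjusted p = 0.091). This test is the ET difference minus the air difference between *ein2-45* and L*er*, and the segment was chosen by the height of both. The call of *LBD25* was lost without any of *ein2-45* ET replicate 1, *ein2-45* air replicate 1, L*er* ET replicate 1 and L*er* air replicate 2. Rescaled, 3 members were higher and 3 lower.

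**Figure D4:**
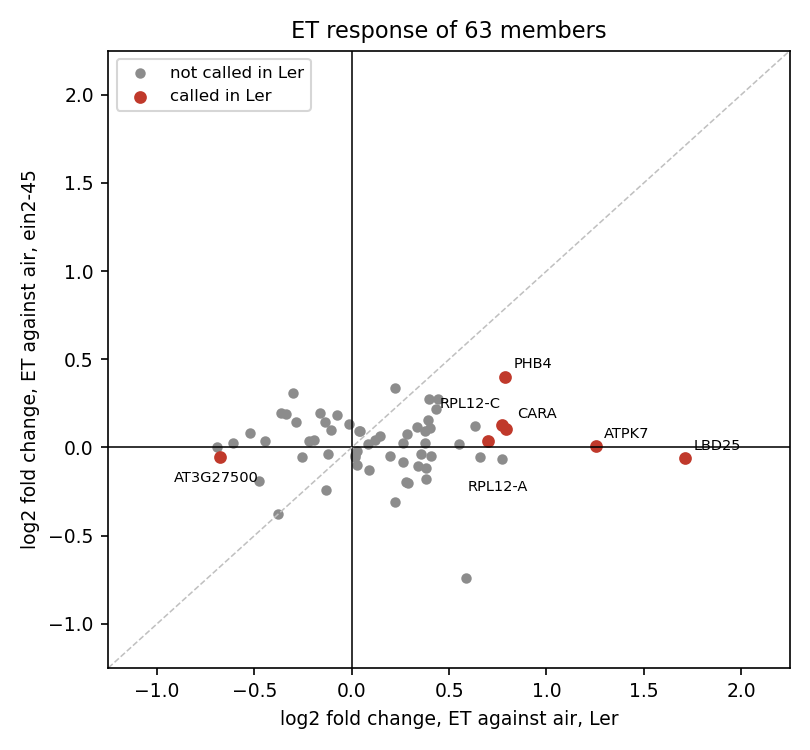
ET response (log2 fold change, ET against air) of the 63 members in L*er* (horizontal axis) and *ein2-45* (vertical axis), with the 7 members called in L*er* in red and the line of equal response dashed. *LBD25* and *ATPK7* lie far to the right at 1.71 and 1.25 while near 0 on the *ein2-45* axis.

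The 250 bases upstream of the annotated starts are shown for the ET-called *LBD25* and *ATPK7*, for *OLEO4* and *LHCB2.3* at the opposite ends of the *ein2-45* differences, and for *PBB1* as a member near the median. They were read 5′ to 3′ on the gene's strand from TAIR10.1 chromosome 3 (RefSeq). Capitals mark matches on either strand to ATGTAT or ATGTAC, the core of sites known for EIN3, to the EIN6 (REF6) motif in its spellings CTCTGCTC, CTCTGCTT, CTCTGTTC and CTCTGTTT, or to TATAAA.
LBD25, chr3:10238264-10238513, plus strand: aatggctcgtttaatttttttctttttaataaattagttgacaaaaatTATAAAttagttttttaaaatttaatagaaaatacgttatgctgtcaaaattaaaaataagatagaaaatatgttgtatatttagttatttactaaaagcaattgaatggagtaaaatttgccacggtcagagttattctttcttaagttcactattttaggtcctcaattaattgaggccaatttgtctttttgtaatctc
ATPK7, chr3:10220062-10220311, minus strand: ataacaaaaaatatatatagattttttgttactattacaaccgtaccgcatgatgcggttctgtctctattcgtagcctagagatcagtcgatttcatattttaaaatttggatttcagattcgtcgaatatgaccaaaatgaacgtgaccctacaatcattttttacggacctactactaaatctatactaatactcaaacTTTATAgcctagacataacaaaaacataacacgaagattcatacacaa
OLEO4, chr3:10242994-10243243, plus strand: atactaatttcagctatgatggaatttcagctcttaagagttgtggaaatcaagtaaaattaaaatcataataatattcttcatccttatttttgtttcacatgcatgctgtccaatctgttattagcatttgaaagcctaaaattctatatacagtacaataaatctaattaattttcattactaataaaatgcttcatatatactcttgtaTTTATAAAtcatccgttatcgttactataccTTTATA
LHCB2.3, chr3:10255656-10255905, plus strand: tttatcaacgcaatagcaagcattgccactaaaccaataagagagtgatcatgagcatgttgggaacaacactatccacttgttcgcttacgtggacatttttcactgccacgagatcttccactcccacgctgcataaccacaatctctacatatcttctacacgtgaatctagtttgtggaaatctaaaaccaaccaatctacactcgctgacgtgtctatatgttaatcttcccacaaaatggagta
PBB1, chr3:10152208-10152457, plus strand: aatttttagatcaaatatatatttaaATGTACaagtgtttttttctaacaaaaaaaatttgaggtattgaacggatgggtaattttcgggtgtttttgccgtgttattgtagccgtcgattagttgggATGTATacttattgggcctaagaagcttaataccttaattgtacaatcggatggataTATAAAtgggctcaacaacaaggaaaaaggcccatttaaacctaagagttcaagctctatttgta

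In these windows *PBB1*, which was not called with ET in L*er*, held ATGTAC 224 bases, ATGTAT 122 bases and TATAAA 65 bases before its start, and *LBD25* and *ATPK7* held a TATAAA match only, 202 and 48 bases before theirs. *OLEO4* held 3 TATAAA matches and *LHCB2.3* no match. Over all 65 members, ATGTAT was found in 14 windows (21.5%, against 22.5% of 32834 windows of the same length over all genes) and ATGTAC in 5 (7.69% against 9.26%). The EIN6 motif was found in 2 (3.08% against 5.77%) and TATAAA in 33 (50.8% against 45.8%). A match is a description of the letters and no site.

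Col-0 gives the level of the same genes in another wild type, but accession and experiment cannot be told apart in this comparison. Ribosomal RNA genes took 0.92% and 2.87% of the TPM in the Col-0 libraries, against 16.1% and 11.6% in those of L*er* in air. In air, 30 of 63 members were higher in Col-0 than in L*er* and 6 lower, against 37.5% and 11.3% of all tested genes, and rescaled 20 were higher and 11 lower. The median member was 0.33 higher and the median tested gene 0.29. *LHCB2.3* was at 90.01 and 148.5 TPM in Col-0 against 2.92 and 2.88 TPM in L*er* (log2 fold change 4.90, SE 0.31, limma adjusted p = 4.3e-07). *OLEO4* was at 0.250 and 0.860 TPM against 42.2 and 44.2 TPM (-4.86, SE 0.36, adjusted p = 1.5e-06). The noncoding RNA gene At3g27990 stood at 16.6 ± 2.33 TPM in Col-0 against 0.415 ± 0.0919 TPM in L*er* (3.63), At3g27906 had 22.4 ± 2.71 and 3.31 ± 1.09 TPM (2.46), and *TBL22* 0.760 ± 0.170 and 4.09 ± 0.276 TPM (-1.54). Members near the *ein2-45* median varied in Col-0. *PBB1* was not called, and stood at 105 ± 8.24 TPM in Col-0 against 102 ± 4.19 TPM in L*er*, and neither was *PUX1*, at 46.3 ± 2.18 and 43.0 ± 6.08 TPM. At3g27420 was higher in Col-0 by 0.87 (SE 0.15, limma adjusted p = 0.00062), and *G6PD5* was lower, at -0.45 (SE 0.11, adjusted p = 0.0052).

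Over 61 members, the *ein2-45* minus L*er* difference after ET and the Col-0 minus L*er* difference in air, which share no library, had a Pearson r of 0.47 and a Spearman rho of 0.19. Without *OLEO4* and *LBD25* r was 0.21 and rho 0.12 over 59 members. The Pearson value thus depended on the pair, which was left out together, while *LHCB2.3* was kept. *OLEO4* and *LHCB2.3* moved in the same direction in both, by -2.71 and 2.27 in *ein2-45* after ET and by -4.86 and 4.90 in Col-0.

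**Figure D5:**
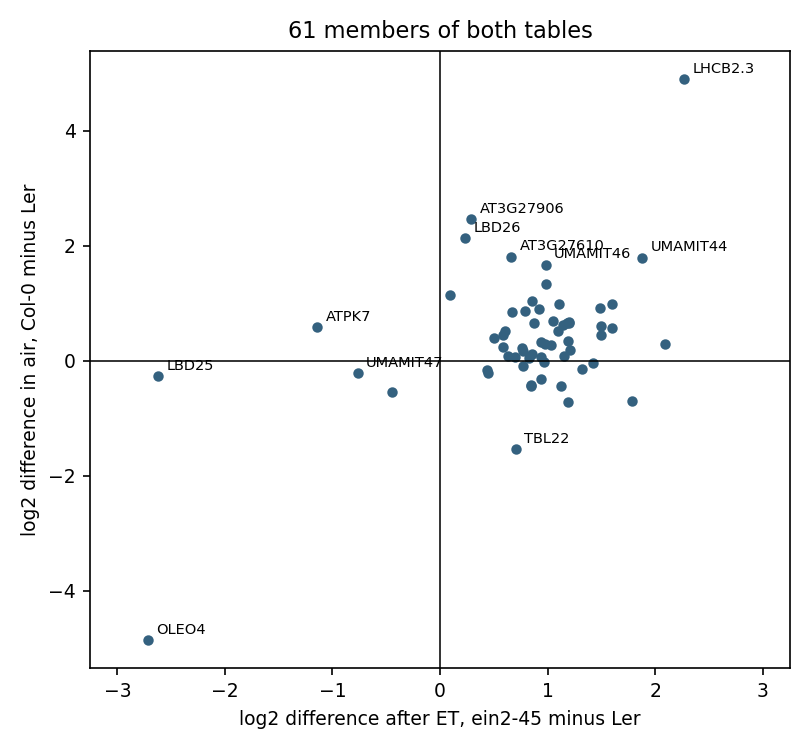
Difference between *ein2-45* and L*er* after ET (horizontal axis) against the difference between Col-0 and L*er* in air (vertical axis) for 61 members, both in log2 of TPM + 1. *LHCB2.3* and *OLEO4* sit at opposite corners, and the other members spread above and below 0 on the Col-0 axis while mostly near 1 on the *ein2-45* axis.

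The INO80-complex mutants in the Col-0 background moved members in both directions. In *een-2*, 5 members rose and 6 fell relative to Col-0, against 7.71% and 5.78% of all tested genes. The count was 3 without *een-2* air replicate 2, 5 without either Col-0 library and 0 in a limma fit of the compared groups only, where 17 members had an unadjusted p below 0.05. In *ino80-8*, 1 rose and 2 fell, against 2.61% and 1.99% of all tested genes. That count was 7 with a replicate block and 0 with the compared groups only, where 15 members had an unadjusted p below 0.05 in limma. In *arp5-1*, 12 rose and 26 fell, against 23.7% and 28.9%. *OLEO4* was higher than in Col-0 in all 3 mutants, at 7.30 ± 1.52 TPM in *een-2* (2.43), 25.4 ± 1.39 TPM in *ino80-8* (4.11) and 42.5 ± 0.417 TPM in *arp5-1* (4.83). *LHCB2.3* was lower in all 3, at 16.6 ± 1.10, 32.2 ± 11.6 and 3.77 ± 2.02 TPM, with log2 fold changes of -2.73, -1.86 and -4.68. The 3 comparisons share the Col-0 libraries. In *arp5-1*, At3g27990 and *LBD26* were listed at 0 in both libraries, and At3g27884 fell from 24.9 ± 0.368 to 4.16 ± 1.55 TPM (-2.36). *PHB4* and the H3.1 gene At3g27360 rose in *arp5-1* by 1.26 and 1.48.

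Several members have close copies, among which the authors' estimation can divide reads, so their values are uncertain. The coding sequences of *RPL12-A* and *RPL12-C* are 92.0% identical, and the annotated *RPL12-B* between them was below the minimum. *LHCB2.3* is 84.8% identical to *LHCB2.2* and 85.8% to *LHCB2.1*, which lie on chromosome 2, and *PBB1* is 88.1% identical to *PBB2*. In the UMAMIT array, *UMAMIT46* is 89.9% identical to *UMAMIT45* over 631 bases and 89.1% to *UMAMIT47* over 358 bases. The array did not move as one: in *ein2-45* against L*er* in air *UMAMIT41* was at 1.48, *UMAMIT46* at 1.51, *UMAMIT45* at 0.88 and *UMAMIT44* at 1.40, but *UMAMIT47* at -0.55. The annotated ARI pair At3g27710 and At3g27720 was below the minimum.

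Genes listed as relatives at other loci had medians near 0, though single genes were called in both directions. Most of the 37 tested were from the families or complexes of *PHB4*, *G6PD5*, the H3.1 gene, *SDH2-1*, *PBB1*, *OLEO4*, *CARA*, *MDAR4* and *DEG1*. Others were relatives of *AOX1C* and *MYB0*, segment genes below the minimum and so not members, or genes of trichome and root hair fate such as *GL2*. Of the 37, 4 were higher and 6 lower in *ein2-45* than in L*er* in air, against 11.5% and 4.35% of all tested genes. After ET 5 were higher and 6 lower, against 11.9% and 9.24%. Their median difference was 0.02 in air and -0.09 after ET, against 0.18 and -0.01 over all tested genes. *PBB2* differed by 0.18 and -0.07, *SDH2-2* by -0.34 and -0.34, and the 4 other H3.1 genes by -0.17 to 0.32 in air, none of them called. The 4 called higher in air were *DEG5* (0.98), *G6PD1* (0.90), *DEG8* (0.81) and *ATMDAR2* (0.71), relatives of *DEG1*, *G6PD5* and *MDAR4*. After ET *ATMDAR2* (0.70) was again called higher, with *MYB23* (1.12), *GL2* (1.06), *MDHAR* (1.06) and *AOX2* (0.85). Of the 4 other oleosins, 3 fell in air, *OLEO1* by a log2 fold change of -3.12 (SE 0.34, limma adjusted p = 3.6e-06), *OLEO2* of -1.73 and At3g01570 of -1.64, and *OLEO1* and *OLEO3* fell after ET. The air count was 16 after rescaling, with 6 higher and 10 lower. It was 3 without *ein2-45* air replicate 1 and 5 without L*er* air replicate 1. The ET count was 7 without either *ein2-45* ET library or L*er* ET replicate 2, and 18 without either *ein6-1* ET library.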

How the data were processed

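RNA from etiolated seedlings was sequenced in 28 libraries of 14 groups. The authors mapped reads to TAIR10 with STAR 2.6.0c, quantified genes with RSEM 1.3.0 and named edgeR for differential expression. The deposited values are TPM, not scaled between libraries. The second table repeats 4 L*er* and *een-1* air columns of the first for all 33602 genes, and these were counted once. The series' ChIP-seq and methylation samples were not used here.

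The members and gene lists were chosen with earlier results of these data known. Values were compared as log2(TPM + 1). A gene entered the tests of a table if 2 or more of its libraries reached 1 TPM (20592 and 20558 genes). Group means were fitted per table by limma 3.58.1 (R 4.3.3) with a variance trend, p-values were adjusted by Benjamini-Hochberg over the whole table, and calls were made at an adjusted p below 0.05. The fit was tested on simulated data. Nothing in the labels says which seedlings a library pooled, so p-values measure the spread between libraries, and fewer cells of a type and less RNA per cell cannot be told apart. Identities came from blastn 2.17.0 and positions from TAIR10.1, which 32835 rows match.

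Named were the 12 largest and 6 smallest differences among members of at least 5 TPM, the genes at each edge, tandem copies, family members and examples among those called. *PUX1* was named after its values were seen. Alternatives were other minimums and pseudocounts, rescaling, the compared groups only, a replicate block and leaving out libraries.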

Additional observations from a re-analysis of the deposited data

Results flagged for a closer look

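The ET response of *LBD25*, a LOB-domain transcription factor gene of the segment, differed between *ein2-45* and L*er* by -1.77 on the log2 scale in a direct test of the difference (SE 0.40, limma adjusted p = 0.016, range 0.0014 to 0.109 over 17 alternatives). The test subtracts the air difference between *ein2-45* and L*er* from the ET difference. The segment was chosen by the height of both differences, so the p-value is not independent of that choice. The 2 L*er* libraries were at 5.06 and 3.91 TPM in air and at 18.6 and 15.3 TPM after ET, and the *ein2-45* libraries at 3.20 and 1.19 TPM in air and 1.76 and 2.06 TPM after ET. The call was lost under 5 of the alternatives, of which 4 left out 1 library and the other used a pseudocount of 0.1.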

How the results depend on the processing

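Of 200 values under alternatives for 16 results, 142 stayed on the same side of the threshold or within the replicate spread or 1.5 times a count, and the median differences between *ein2-45* and L*er* kept their sign. Rescaling turned the split of calls for ET in L*er* from 6 higher and 1 lower to 4 higher and 11 lower. The median difference between *ein2-45* and L*er* was 0.82 in air with a pseudocount of 5 and 0.86 after rescaling, and after ET 0.78 with no minimum on TPM, 1.02 with a pseudocount of 0.1 and 0.63 with a pseudocount of 5. The cause of these shifts was not tested beyond their construction, since a higher pseudocount shrinks every difference. Leaving out 1 library gave medians of 0.96 to 1.14 in air and 0.83 to 0.98 after ET, and 54 to 55 members with all *ein2-45* above all L*er* libraries.

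Counts of called members moved more. After rescaling, 15 were called for ET in L*er*, 6 for the difference in ET response and 16 of the relatives at other loci in air. The difference in response had 0 calls with a pseudocount of 0.1, 2 with a pseudocount of 5 and 4 with the compared groups only, and *ein6-1* against L*er* 1 with a pseudocount of 0.1 and 1 with the compared groups only. With the compared groups only, 0 members were called by limma for *een-2* (17 at an unadjusted p below 0.05) and 0 for *ino80-8* (15), and *een-2* had 7 without the L*er* and *een-1* columns. Leaving out 1 library gave 1 to 17 calls for ET in L*er*, 0 to 5 for the difference in response, 1 to 4 for *ein6-1*, 1 to 31 for *een-1*, 11 to 29 for *ein6-1 een-1*, 4 to 14 for *ein6-1 een-1* against *een-1*, 3 to 11 for *een-2*, and 3 to 14 (air) and 7 to 18 (ET) of the relatives. The *ein6-1* ET exclusions and the comparison with all 16 libraries were chosen after seeing the data. Without an *ein6-1* ET library, its group keeps 1 library, assumed to vary like the others.

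Replicate numbers did not pair the libraries: deviations from group means of same-numbered libraries correlated from -0.27 to 0.26 over 45 pairs of groups in the first table and from -0.07 to 0.17 over 15 in the second. With a replicate block, 7 members were called in *ino80-8* against Col-0, and no other count moved by over 1.5 times. With 2 libraries per group and depth unknown, low members such as *LBD26* are uncertain.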
